A study of Canis lupus familiaris with 28 samples.

Results

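The genes described are those that mark eosinophils and basophils in blood, together with the subunits of the high-affinity IgE receptor. They are CCR3, IL5RA, EPX, ALOX15, FCER1A, MS4A2, FCER1G, HDC, CPA3 and GATA2, and every probe whose gene name equals one of these 10 was taken. No probe carries the name EPX, so eosinophil peroxidase was not analysed here, and the other 9 genes, of 34382 gene names on the array, have 12 probes among its 43603.

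Gene expression was measured in RNA from whole blood of 20 AD dogs (dogs with atopic dermatitis) and 8 healthy dogs, with 1 two-color Agilent array per dog. The labels give whole blood as the source, whereas the methods speak of nuclear cells of the blood, and the labels were followed. The dogs were client-owned adults of several breeds and both sexes. The AD dogs kept off anti-inflammatory drugs for some weeks before allergy testing, and the healthy dogs were blood donors. On every array the dog's RNA (Cy5) was set against one reference (Cy3), a pool of RNA from 13 other healthy dogs. A value is therefore the log2 ratio of dog to reference, centered on the median of its array, and 0 means the level of the pool after centering.

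Eosinophils and basophils are scarce granulocytes of the blood and prominent in allergy. Eosinophils live on interleukin 5, whose receptor has IL5RA as its specific chain, and follow eotaxins through CCR3. Basophils and tissue mast cells carry the IgE receptor, made of an alpha chain that binds IgE (FCER1A), a beta chain that amplifies the signal (MS4A2) and a gamma chain that passes it on (FCER1G). Once IgE is cross-linked by allergen, these cells release histamine, which is made by histidine decarboxylase (HDC), and proteases such as carboxypeptidase A3 (CPA3). GATA2 is a transcription factor of basophils, mast cells and blood progenitors. ALOX15 is the lipoxygenase of eosinophils that makes oxidized fatty acids. In whole blood, fewer cells of a type and less RNA per cell cannot be told apart.

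The following probes carry the results below, each written 5′ to 3′ as the array files give it. Both FCER1G probes are shown because they share 50 bases, in capitals, so that they are not independent measurements. The other probes are shown because single dogs or pairs of genes turn on them, and they hold no capitals. Each has at least 1 reading frame without a stop codon, and no other gene's probe shares 20 bases with any of them on either strand.
FCER1G main probe: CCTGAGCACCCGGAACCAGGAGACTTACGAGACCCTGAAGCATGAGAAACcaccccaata
FCER1G second probe: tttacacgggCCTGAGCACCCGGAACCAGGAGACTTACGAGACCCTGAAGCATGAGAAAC
CCR3: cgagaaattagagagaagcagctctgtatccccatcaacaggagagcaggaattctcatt
IL5RA: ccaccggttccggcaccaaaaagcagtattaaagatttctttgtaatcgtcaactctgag
CPA3: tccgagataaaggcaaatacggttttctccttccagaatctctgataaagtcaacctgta
MS4A2 second probe: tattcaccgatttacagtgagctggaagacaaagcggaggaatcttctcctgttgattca

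In the canFam3 build of the files, the main FCER1G probe lies at chr38:21268002-21268061 on the minus strand. The second FCER1G probe lies at chr38:21268012-21268190, so its 60 bases span 179 bases of genome. FCER1A lies on the same chromosome, with its main probe at chr38:22683547-22683606 and its second at chr38:22683497-22683556, and these share 10 bases. CCR3 (chr20:42383145-42383204), IL5RA (chr20:14339650-14339709) and GATA2 (chr20:2474075-2474134) have 1 probe each on chromosome 20. The CPA3 probe is at chr23:43747856-43747915, the ALOX15 probe at chr5:31890937-31890996 and the HDC probe at chr30:16201636-16201695. The MS4A2 probes are at chr21:50456555-50456616 for the main one and chr21:50456178-50456237 for the second. No gene annotation of this build was used here, so exon and UTR are not stated.

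Where a gene has a pair of probes, the brighter one is called the main probe. A probe was taken as detected where the dog's signal was marked well above background. Of the 12 probes, 8 were detected on all 28 arrays, against 47.1% of all probes, and 11 on at least 14 arrays, against 82.8%. These were the probes of ALOX15, CCR3, IL5RA, the main probe of FCER1A, and both probes of FCER1G and of MS4A2. The second FCER1A probe and CPA3 were detected on 24 arrays each, and GATA2 on 23. HDC was detected on 13 arrays, 8 of AD and 5 of healthy dogs, and was the only member that the filter on signal removed, a filter that 69.3% of all probes passed. Array quality differed between the groups. The share of probes detected was 84.3% to 90.3% on healthy arrays and 51.7% to 87.5% on AD arrays, and the 6 AD arrays of the dimmest scan day reached at most 63.2%. No slide and no scan day held both groups, so slide, scan day and disease cannot be told apart. The 7 neutrophil, 6 erythroid and 5 platelet marker genes with a probe were detected on every array.

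No member differed between AD and healthy dogs in the fit across all probes with limma and Benjamini-Hochberg adjustment. Of the 11 member probes that passed the filter, 0 had an adjusted p of at most 0.085, the main threshold used here, and 0 of at most 0.05. Of all 30202 probes, 0 (0%) did so at either threshold. At an unadjusted p of at most 0.05, 0 of the 11 member probes passed, against 6.12% of all probes (1.65% higher and 4.46% lower in AD dogs). No member probe, and 0% of all probes, had AD and healthy values that did not overlap. The differences of the 11 probes, AD minus healthy, lay between -0.19 and 0.40 on the log2 scale. Each of the 11 confidence intervals held 0, and they were widest for CPA3 and ALOX15, from -0.63 to 1.44 and from -1.02 to 0.96. P-values measure the spread between arrays, each of which is a separate dog. That spread joins differences between dogs with those of labeling, hybridization, slide and scan day.

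**Figure D1:**
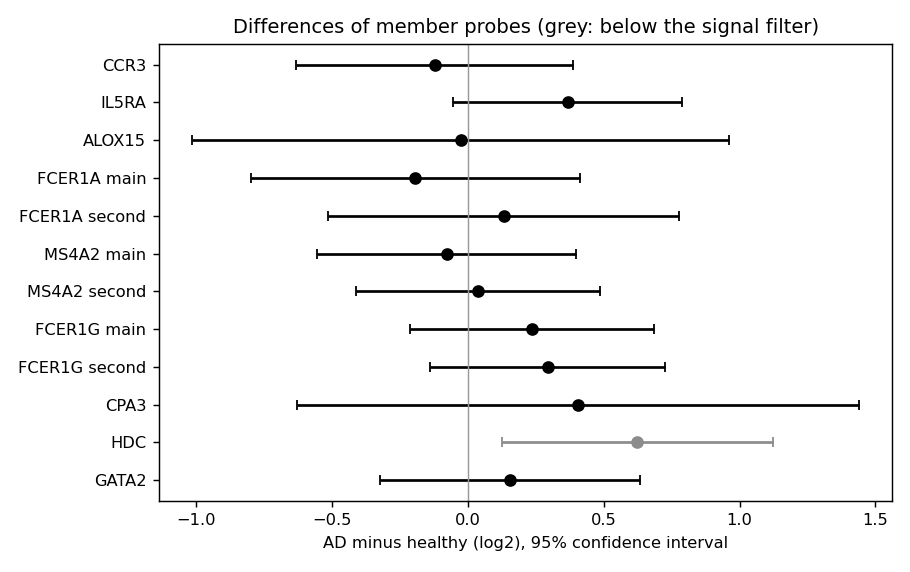
AD minus healthy difference of each member probe (log2, horizontal axis) with its 95% confidence interval from limma, for 20 AD and 8 healthy dogs. Of the 12 intervals, only that of HDC, drawn in grey because the probe did not pass the filter on signal, leaves out 0.

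Of the eosinophil receptors, CCR3, which binds eotaxins, ranged in AD dogs from -1.31 through a median of -0.36 to 0.97. In healthy dogs it ranged from -1.08 through -0.05 to 0.93. Low and high dogs occurred in both groups and the ranges overlapped almost entirely. The difference was -0.12 (SE 0.25, limma p = 0.628, adjusted p = 0.942).

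IL5RA, the alpha chain of the interleukin 5 receptor, ranged in AD dogs from -0.68 through 0.20 to 1.43. In healthy dogs it ranged from -0.61 through -0.16 to 0.74, and 15 of 20 AD dogs lay above the healthy mean. AD dogs 14, 2 and 4 were highest, at 1.43, 1.08 and 1.00, above all healthy dogs. The difference was 0.37 (SE 0.206, limma p = 0.0849, adjusted p = 0.858), with a 95% interval of -0.05 to 0.79. Among the healthy dogs, 7 lay between -0.61 and -0.01, and dog 2 stood apart at 0.74. Without that dog the difference was 0.49 (limma p = 0.0247, adjusted p = 0.829).

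ALOX15 varied most among the eosinophil genes. In AD dogs it ranged from -1.79 through 0.25 to 3.07, and in healthy dogs from -0.46 through 0.15 to 2.54. AD dogs 6, 7, 15 and 16 lay above 2, as did healthy dog 7, while the other healthy dogs reached at most 1.60. The high AD dogs were scanned on different days, 6 and 7 on one and 15 and 16 on another. The group means were nearly equal, with a difference of -0.03 (SE 0.484, limma p = 0.956).

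**Figure D2:**
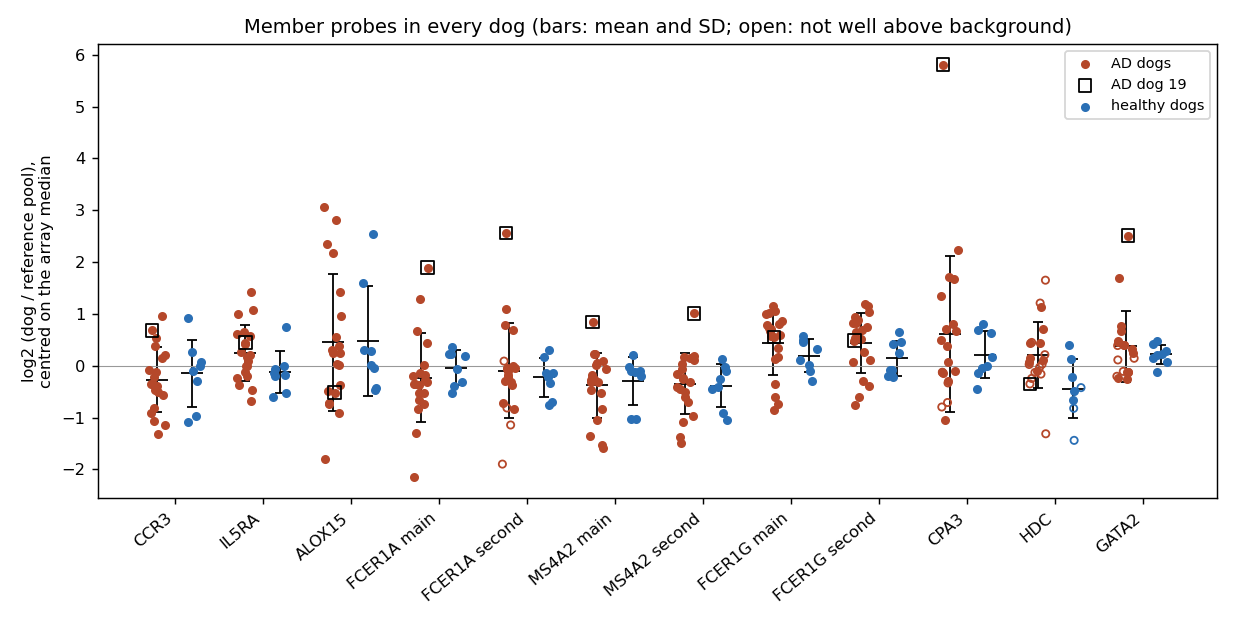
Log2 ratio of dog to reference for each member probe (vertical axis), with 1 point for each of the 20 AD and 8 healthy dogs. Black bars give the mean and SD, open points were not detected, and squares mark AD dog 19, which lies at 5.81 for CPA3.

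Of the IgE receptor chains, the main FCER1A probe ranged in AD dogs from -2.15 through -0.33 to 1.89. In healthy dogs it ranged from -0.53 through 0.06 to 0.36. The healthy values lay inside the AD range, with 4 AD dogs above them all and 6 below. The difference was -0.19 (SE 0.297, limma p = 0.52), and the second probe gave 0.13 (SE 0.316, limma p = 0.682). The probes correlated at r = 0.750 over the 28 arrays and differed by up to 1.52 in 1 dog, so the sign of the FCER1A difference depended on the probe.

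MS4A2, the beta chain, ranged at its main probe in AD dogs from -1.58 through -0.27 to 0.84. In healthy dogs it ranged from -1.02 through -0.11 to 0.22. Healthy dogs 1 and 4 were low, both at -1.02, as were AD dogs 20, 6, 1 and 5, all below -1. The difference was -0.08 (SE 0.233, limma p = 0.739), and 0.04 (SE 0.22, limma p = 0.873) at the second probe. The pair of probes correlated at r = 0.923. The second probe was printed as 5 spots, whose median SD within an array was 0.083, against SDs between arrays of different dogs of 0.592 (AD) and 0.415 (healthy). The spots give the printing error alone, not that of labeling and hybridization.

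FCER1G, the gamma chain that other Fc receptors also use, ranged at its main probe in AD dogs from -0.85 through 0.63 to 1.16. In healthy dogs it ranged from -0.29 through 0.22 to 0.57. Of 20 AD dogs, 12 lay above the highest healthy dog, and 4 (dogs 11, 17, 18 and 20) lay below the lowest. So many AD dogs above every healthy dog were found at 0.642% of all probes, a count chosen after the values were seen. At the second probe 9 AD dogs lay above the highest healthy dog and 4 below the lowest. The difference was 0.23 (SE 0.22, limma p = 0.295, adjusted p = 0.873), and 0.29 (SE 0.212, limma p = 0.175, adjusted p = 0.866) at the second probe.

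Of the 4 low AD dogs, 3 were on the dimmest scan day. The mean of FCER1G by scan day of the AD arrays was 0.82, 0.67, 0.40 and 0.04 in scan order, with 4, 4, 6 and 6 dogs. Without the 6 arrays of the dimmest day, the difference was 0.40 at the main probe (limma p = 0.0213, adjusted p = 0.425) and 0.43 at the second (limma p = 0.0196, adjusted p = 0.408). In AD dogs FCER1G also moved with the mean of the 7 neutrophil markers (r = 0.583, rho = 0.544, permutation p = 0.00683, adjusted p = 0.283 over 144 correlations of members with marker lists or detection). This r was 0.577 with slide means removed and 0.485 without the 2 farthest dogs, meaning those farthest from the median of the marker mean. With the 5 platelet markers r was 0.576 (rho = 0.651), and 0.606 without the 2 farthest dogs. In healthy dogs the platelet correlation had the opposite sign (r = -0.393, rho = -0.619). With the 2 progenitor markers r was -0.595 (rho = -0.582), and -0.307 without the 2 farthest dogs, on which it rested in part. With the 6 monocyte markers r was 0.523 (rho = 0.406), and 0.590 with slide means removed. With the B cell markers r was -0.509 (rho = -0.522), and -0.288 with slide means removed. None of these correlations passed after adjustment. The neutrophil list had positive differences for 6 of 7 genes, with a median of 0.18 and 0 called. Its summed signal ranged from 287022 to 1135840 in AD and from 276254 to 515705 in healthy dogs. What part these markers and the scan day have in the FCER1G values was not tested.

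Of the granule and basophil genes, CPA3 ranged in AD dogs from -1.05 through 0.23 to 5.81 and in healthy dogs from -0.45 through 0.09 to 0.80. AD dog 19 stood at 5.81, the next AD dogs were 16, 9, 17 and 12 at 2.24, 1.71, 1.68 and 1.34, and 3 AD dogs lay below all healthy dogs. CPA3 was detected on 16 of the 20 AD arrays, and of the low dogs, 14 and 20 were not detected. The reference signals of dogs 16, 9, 17 and 12 were 61.9, 70.2, 57.9 and 98.8, against a median of 99.9 on AD arrays. The difference was 0.40 (SE 0.507, limma p = 0.431). Without dog 19 it was 0.13 (limma p = 0.682), and the SD of AD dogs went from 1.51 to 0.909, against 0.453 in healthy dogs.

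GATA2 ranged in AD dogs from -0.26 through 0.29 to 2.51 and in healthy dogs from -0.11 through 0.23 to 0.48. AD dogs 19 and 14, at 2.51 and 1.70, stood above the others, which reached 0.76 at most. Their own signals were not high, at 39.7 and 131 against an AD median of 140. The reference signals on these arrays were 7.02 and 39.9, against a median of 132 on AD arrays. The difference was 0.15 (SE 0.235, limma p = 0.517). The GATA2 signals were low on the dim arrays, and the dog's channel alone gave -0.62 (limma p = 0.0488, adjusted p = 0.259), while the reference channel, whose RNA was the same throughout, gave -0.71 between the same arrays. The sign of the GATA2 difference therefore turned when the reference was left out. In healthy dogs GATA2 ran against the mean of the 2 progenitor markers (r = -0.880, rho = -0.929, exact permutation p = 0.00181, adjusted p = 0.261). This was the smallest p of the 144 correlations with marker lists or detection. In AD dogs the same r was -0.181.

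HDC ranged in AD dogs from -1.31 through 0.09 to 1.65 and in healthy dogs from -1.44 through -0.46 to 0.41. All AD dogs but 1 lay above the healthy mean. The difference of 0.62 (SE 0.244, limma p = 0.0161, adjusted p = 0.442) comes from the fit without the filter on signal. The median signal of the dogs was 44.0 in AD and 46.7 in healthy dogs, whereas that of the reference was 41.7 on AD arrays and 72.9 on healthy arrays. These medians are raw signals, which also carry the brightness of the arrays, and both channels lay low. With each channel normalized across arrays, the dog's channel alone gave 0.31 (limma p = 0.15, adjusted p = 0.398). The reference channel gave -0.34 between the same arrays (limma p = 0.0297, adjusted p = 0.0971).

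AD dog 19 was the highest of all 28 dogs at 6 of the 11 member probes, those of CPA3, FCER1A, MS4A2 and GATA2. Counted among AD dogs alone, it was highest at 6 of the 11 member probes and at 5.42% of all probes. FCER1A and MS4A2 each enter with a pair of correlated probes (r = 0.750 and 0.923), so the 6 are not independent. This dog was singled out after its values were seen. Its CPA3 signal was 4234 against 76.2 in the reference, and the median signal over AD dogs was 133. FCER1A stood at 1.89 at the main probe, where AD dog 18 was next at 1.30, and at 2.56 at the second. MS4A2 stood at 0.84 and 1.01, with the next AD dog at 0.23 and 0.20. GATA2 rested on a signal of 39.7 against 7.02 in the reference. CCR3 at 0.68 was second among AD dogs, whereas IL5RA (0.45), FCER1G (0.56 at the main probe), ALOX15 (-0.52) and HDC (-0.35, not detected) did not lead.

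**Figure D3:**
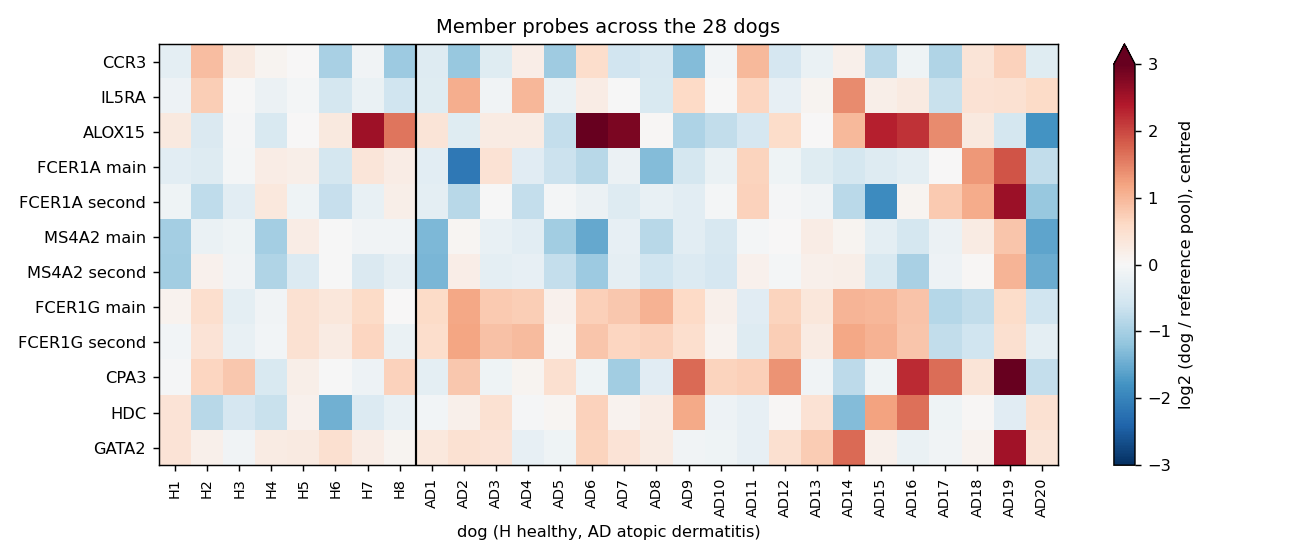
Log2 ratio of dog to reference for the 12 member probes (rows) in 8 healthy dogs (H) and 20 AD dogs (columns), with red above and blue below the reference. CPA3 in AD dog 19 lies beyond the end of the color scale. The column of AD dog 19 is red for FCER1A, MS4A2, CPA3 and GATA2, and the ALOX15 row is red in AD dogs 6, 7, 15 and 16 and in healthy dog 7.

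Other basophil and mast cell genes of dog 19 were mixed. SLC18A2, the transporter that loads amines into granules, stood at 2.38, the highest of AD dogs, though its probe did not pass the filter. CD200R1, an inhibitory receptor of basophils and mast cells, was also highest, at 0.62. KIT, the stem cell factor receptor that defines mast cells, was lowest at -1.76 and not detected. CMA1, the mast cell chymase, ranked 3 among AD dogs at 0.45. Of the rest of the 15 genes of this list with a probe, CD63, MITF and HNMT ranked 2, 3 and 4. ENPP3, CTSG, HPGDS and KITLG ranked 7, 10, 10 and 12, and HPGDS and KITLG were not detected. RUNX1, IL1RL1, HRH2 and HRH1 ranked 13, 14, 16 and 17. By its lead over all other dogs, CPA3 ranked 2 among the 30202 probes in dog 19. PDE6A, at 4.79, ranked 1, and MMP9, a neutrophil gelatinase, stood at 5.83 and ranked 5. The array of dog 19 had 61.3% of probes detected, and its means over the neutrophil and B cell markers ranked 4 and 2 among AD dogs.

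Spread between dogs was larger in AD dogs for 10 of the 11 member probes. This was also so for 77.6% of all probes, with a median SD of 0.433 in AD and 0.297 in healthy dogs. The AD SD was at least 3 times the healthy SD for 2 members, CPA3 and GATA2, and for 6.41% of all probes. Both rested on dog 19. Without it the AD SDs of CPA3 and GATA2 were 0.909 and 0.470, against healthy SDs of 0.453 and 0.185, and neither reached 3 times.

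Co-variation was tested among the 8 genes whose main probe was detected on at least 14 arrays, which left out HDC. The 28 pairs were correlated within AD and within healthy dogs, giving 56 tests. One pair passed the adjusted threshold of 0.05, CCR3 and IL5RA in healthy dogs. Their r was 0.945 over 8 dogs (exact permutation p = 0.000521, adjusted p = 0.0292). Spearman's rho was 0.881 (exact permutation p = 0.00724, adjusted p = 0.406).

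The dogs lay along one line from dogs 8 and 6, low for both genes, to dog 2, high for both. Without the pair of dogs farthest from the CCR3 median, r was 0.941 over 6 dogs (exact permutation p = 0.0222, adjusted p = 0.465). So few dogs allow few permutations, and 1 such pair alone could not pass after adjustment, whatever its r. With the mean of each slide removed it was 0.915. Both genes ran against the mean of the 6 erythroid markers in the same 8 dogs. For CCR3 this r was -0.789 (rho = -0.905, exact permutation p of r = 0.020, adjusted p = 0.403). For IL5RA it was -0.717 (rho = -0.690, exact permutation p of r = 0.037, adjusted p = 0.533). In the 20 AD dogs the r with the erythroid markers was -0.004 for CCR3 and -0.038 for IL5RA. What part the erythroid markers have in the pair was not tested. In AD dogs the same pair had r = 0.292 (permutation p = 0.212) and rho = 0.355, and AD dogs 2 and 9 were high for IL5RA at low CCR3. Whether the groups differ in this correlation was not tested.

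**Figure D4:**
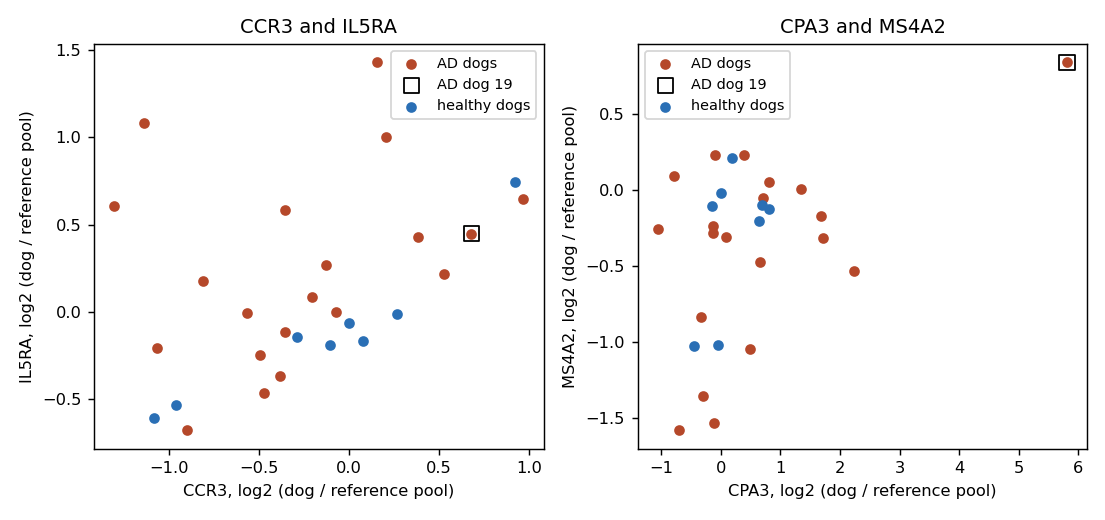
Log2 ratios of CCR3 and IL5RA (left) and of CPA3 and MS4A2 (right), 1 point per dog, with AD dog 19 squared. Healthy dogs follow a line for CCR3 and IL5RA (r = 0.945), and the CPA3 and MS4A2 panel is stretched by AD dog 19.

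In AD dogs, 4 of 28 pairs had an unadjusted p of at most 0.05, and none passed after adjustment. CCR3 and FCER1A had r = 0.581 (permutation p = 0.00645, adjusted p = 0.181), rho = 0.402, and r = 0.491 without dog 19. Without dogs 11 and 19 together, the 2 farthest from the CCR3 median, their r was 0.389, and with slide means removed 0.539. CPA3 and FCER1A had r = 0.513 (permutation p = 0.0361, adjusted p = 0.404), rho = 0.346, and r = 0.0881 without dog 19. CPA3 and MS4A2 had r = 0.50 (permutation p = 0.0253, adjusted p = 0.358), rho = 0.287, and r = 0.247 without that dog. Both correlations of CPA3 thus rested in large part on dog 19. FCER1A and MS4A2, the chains of one receptor, had r = 0.496 (permutation p = 0.0256, adjusted p = 0.358) and rho = 0.513. Their r was 0.576 without dogs 19 and 2 together, the 2 farthest from the FCER1A median, and 0.475 with slide means removed. It was 0.318 without dog 19 alone and 0.147 without the dimmest scan day. FCER1A and the gamma chain FCER1G had r = -0.420 (permutation p = 0.0666, adjusted p = 0.533) and rho = -0.450. Their r was -0.118 with slide means removed, -0.498 without dogs 19 and 2 together, -0.552 without dog 19 alone and -0.617 without the dimmest scan day. Over the 28 pairs the median r was 0.190 among AD dogs and -0.045 among healthy dogs.

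**Figure D5:**
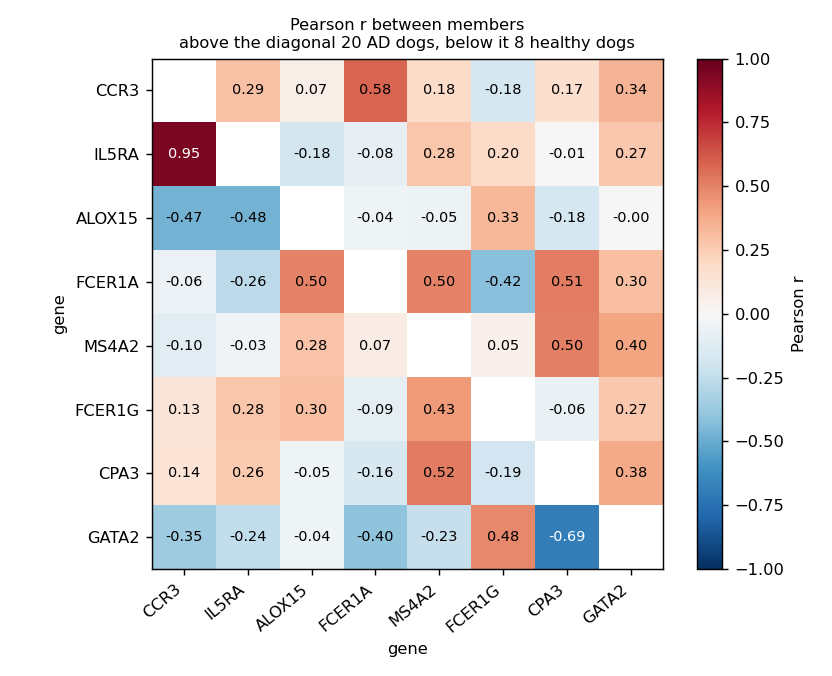
Pearson r between the main probes of 8 members, above the diagonal in 20 AD dogs and below it in 8 healthy dogs. The darkest cell is CCR3 with IL5RA in healthy dogs, and the AD cells of FCER1A, MS4A2 and CPA3 are near 0.5.

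The genes whose values ran most like each member were sought among 10930 genes over the 28 arrays, after the group means were removed. These correlations are a description, since all points share the reference and the array quality. CCR3 ran closest with OLIG1 (r = 0.912), UACA (0.885) and B4GALNT1 (0.841), and each of these held within AD and within healthy dogs, at 0.812 or more. FCER1G ran closest with SPI1 (0.920), the transcription factor PU.1 of myeloid cells, followed by PKM (0.892) and ACTN1 (0.892), although ACTN1 had only 0.207 in healthy dogs. GATA2 ran with WIF1 (0.842), PDGFB (0.781) and ULK3 (0.775). No other member had a neighbor above 0.737.

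ALOX15 had OR4B06 (0.669) and MTTP (0.664) among its nearest genes, and FCER1A had ASPHD2 (0.737), ERICH1 (0.719) and XRCC6 (0.714). CPA3 had ABHD8 (0.715), ZBTB26 (0.711) and CBLC (0.702), and ZBTB26 gave -0.184 in healthy dogs. IL5RA had SETD8 (0.704), KLF13 (0.683) and KIAA0226L (0.668), and MS4A2 had DFNA5 (0.654), PACS2 (0.643) and HGF (0.626). No member was among the 3 nearest genes of another member. The nearest member of CCR3 was FCER1A, at r = 0.471 and rank 46, and that of MS4A2 was CPA3, at 0.487 and rank 129.

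No other tested gene of the same cells and pathways passed either. Of the other eosinophil genes, 5 of 17 were tested, 3 higher and 2 lower in AD dogs, with a median difference of 0.03 against -0.01 over all probes tested. LTC4S, which makes leukotriene C4, differed by 0.31 (limma p = 0.112), and the histamine receptor HRH4 by -0.23 (limma p = 0.348). Of the genes of interleukin 5 and the CCR3 ligands, 14 of 17 were tested, 6 higher and 8 lower, with a median of -0.04. IL5 itself differed by -0.23 (limma p = 0.186) and CCL8 by 0.39 (limma p = 0.201).

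Of the other basophil and mast cell genes, 10 of 18 were tested, 3 higher and 7 lower, with a median of -0.06. ENPP3, an ectoenzyme that serves as a basophil activation marker, was at -0.47 (SE 0.254, limma p = 0.0724, adjusted p = 0.85), and HRH2 was at 0.22 (limma p = 0.257). Of the genes that signal below the IgE receptor, 17 of 21 were tested, 6 higher and 11 lower, with a median of -0.02. The kinase FYN was at -0.30 (limma p = 0.0985) and the phosphatase PTPN11 at -0.25 (limma p = 0.138). Of the partners of FCER1G and other IgE binders, 3 of 11 were tested, with CLEC4E, which pairs with the gamma chain, at 0.19 and LGALS3, an IgE-binding lectin, at -0.06. Of the genes tested in these 5 lists, none reached an unadjusted p of 0.05. One that the filter on signal removed did so in the fit without the filter, and is named after its values were seen. IL1RL1, the interleukin 33 receptor of basophils and mast cells, was lower in AD dogs by that fit, at -0.52 (SE 0.165, limma p = 0.00344, adjusted p = 0.277). It was detected on 24 arrays, with median signals of 54.4 in AD and 87.1 in healthy dogs.

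Markers of other blood cells did not pass either on the log2 ratio. The differences of the erythroid genes were positive for 6 of 6, with a median of 0.42 and ALAS2 at 0.63 (limma p = 0.125). Those of the platelet genes were negative for 5 of 5, with a median of -0.22 and GP1BA at -0.49 (limma p = 0.0791). Of the monocyte markers tested, 4 were higher and 2 lower, of T cells 3 and 2, and of B cells 3 and 3. Of NK cell and progenitor markers, 0 were higher, and 3 and 2 were lower. The genes of smallest p in these lists were CD68 at 0.54 (limma p = 0.0932), CD3E at 0.28, PAX5 at -0.41, GZMA at -0.30 and CD34 at -0.22. They do not stand for their lists. With the dog channel alone, 2 of the markers named passed in limma, CD3E at 0.67 (adjusted p = 0.0385) and CD34 at -0.59 (adjusted p = 0.00744). Under that setting, which leaves out the reference, 1054 probes in all were called, against 0 in the main fit. No slide and no scan day held both groups. The means over these lists overlapped between the groups, and their part in the members' values was not tested.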

How the data were processed

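Arrays were scanned and extracted by the authors with Agilent Feature Extraction (10.7.3.1 per the labels). The deposited spot intensities are on a linear scale, after background subtraction and dye normalization by the authors, beside a log10 ratio of the channels that the authors' table repeats. Log2 ratios of the processed signals, dog (Cy5) over reference (Cy3), were computed without spots marked as outliers, averaged over spots of a probe, and centered on each array's median over the 30202 probes of 43603 that passed the filter on signal (a median of over 100 in a channel and group, and above background somewhere). AD and healthy dogs were compared with lmFit and eBayes of limma 3.58.1 in R 4.3.3, and p-values were adjusted by Benjamini-Hochberg over all of them. A confidence level of 95% was used for intervals. Correlations used 100000 permutations in AD dogs, for two-sided p, and all 40320 in healthy dogs (scipy 1.17.1). The number of arrays limits the precision.

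The members and lists were chosen with earlier results of these data known. All probes of the members were named, the 2 genes of smallest p from each list, and the 3 genes nearest to each member; 2 of the genes so named are not reported here. The alternatives changed the filter, background correction, centering, reference, blocks, array weights, variance model and the dogs, slides or scan day included. On simulated data, 87.5% of probes changed by 1 on the log2 scale and 19% of those changed by 0.5 were recovered. These shares are over 200 changed probes of 30115 and do not give the recovery for the members. Member probes varied more between dogs, with a median AD SD of 0.625 against 0.433 over all probes tested.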

Additional observations from a re-analysis of the deposited data

Results flagged for a closer look

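IL5RA in healthy dog 2, at 0.74, stood far from the other 7 healthy dogs, the gap to the next being 0.558 of the whole range. It was 1 of 12 member probes tested for such a gap in the healthy dogs, and chance marks about 1 in 20. The same dog was the highest healthy dog for CCR3, at 0.93. AD dogs, more than 10, were not tested in this way.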

How the results depend on the processing

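No member probe was called under any alternative tried, and the smallest adjusted p of a member was 0.119, for FCER1G with array weights. The count of all probes called, 0, was 3 with no filter on signal, 1 with probes well above background on at least 8 arrays, 1054 with the dog channel alone (654 lower in AD) and 1009 with array weights (829 lower), and 0 under the others. At an unadjusted p of at most 0.05, 1847 probes passed, against 5791 and 6052 under the last pair of settings. The count of correlated pairs, 1, was 0 with normexp and loess and 0 with the 2 farthest arrays left out, where CCR3 and IL5RA had r of 0.956 and 0.941. Leaving out 2 arrays left 6 healthy dogs, too few for 1 healthy pair alone to pass after adjustment. With the dog channel alone the count stayed at 1, but that pair was FCER1G and GATA2 in AD dogs (r = 0.707), and CCR3 and IL5RA in healthy dogs had r = 0.896 with an adjusted p of 0.0569 by exact permutation. The cause was not tested for any of these.

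Of 1156 values of single genes under alternatives, 1119 kept their direction and side of the threshold and 35 turned direction, 24 of these of member probes, all from differences under 0.5. The other 2 became called, CD3E at 0.67 and CD34 at -0.59, both with the dog channel alone. With normexp and loess, the main MS4A2 probe was at 0.00294, GATA2 at -0.067 and HRH2 at -0.027. With the dog channel alone, GATA2 was at -0.62, HRH2 at -0.49 and FLT3 at 0.22. The second FCER1A probe was at -0.013 with array weights, at -0.016 without the dimmest scan day and at -0.034 without slide 8. ALOX15 was at 0.054, 0.61, 0.19 and 0.17 without slides 1, 3, 5 and 8. Without slide 2, CCR3 was at 0.27, the second MS4A2 probe at -0.063, CLEC4E at -0.013, LGALS3 at 0.080 and PPBP at 0.071. Without slide 3, the main MS4A2 probe was at 0.22, CSF3R at -0.097, GZMA at 0.015 and KLRD1 at 0.16. The main MS4A2 probe was at 0.057 without slide 4 and the second at -0.020 without slide 6. With 1 dog left out, either a healthy dog or AD dog 19, a choice added after seeing the data, ALOX15 ranged from -0.16 to 0.27, CCR3 from -0.26 to 0.031, the second MS4A2 probe from -0.059 to 0.11, the second FCER1A probe from -0.00892 to 0.21, GZMA from -0.49 to 0.017 and KLRD1 from -0.38 to 0.041.

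Dogs of the same number are different dogs. Over the 8 shared numbers, deviations correlated at -0.359 to 0.425, with 4 over 0.1 and 1 healthy dog closest to its own number. The replicate block (dog number) left 0 probes called, and with it ALOX15 was at 0.010. Slide as a random block and scan day as a random block also left 0 called. Signal over background was the limit for HDC, GATA2 and the second FCER1A probe, and on some AD arrays for CPA3.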
